A study of Homo sapiens with 3 samples.

Results

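The genes described here encode the proteins of the mitochondrial ribosome. They were taken by symbol, as the protein-coding genes of the deposited table whose name begins with MRPL or MRPS and a number, which gave 78 of 44591 genes, or 78 of 19233 protein-coding genes. RNA was sequenced from Caki-1 cells, an established human clear cell renal carcinoma line, collected 48 h after transfection. The 3 libraries were labelled si-Control, a non-targeting siRNA, and si-HOIL-1#1 and si-HOIL-1#2, each a different siRNA against HOIL-1, the protein encoded by RBCK1 and a subunit of the linear ubiquitin ligase complex. Each condition had 1 library, the cells carried no other alteration named in the labels, and the methods give 10 nmol/L siRNA. The difference between conditions therefore has no replicate check, no p-value was computed, and the 2 siRNAs, which are different reagents measured against the same si-Control library, were not treated as replicates.

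Mitochondria make a small set of their own proteins, all of them core subunits of the respiratory chain and ATP synthase, on a dedicated ribosome. Its RNAs come from the mitochondrial genome, whereas every one of its proteins is encoded in the nucleus, made in the cytosol and imported. Many of these proteins descend from bacterial ribosomal proteins, and others are found only in mitochondria and lie mainly on the outer surface of the particle. The large subunit (mostly MRPL genes) forms peptide bonds and holds the exit tunnel, and the small subunit (mostly MRPS genes) binds messenger RNA and reads its codons.

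The siRNAs are shown because both si-HOIL-1 libraries rest on them. The study's sequence list names them siRBCK1 #1 and siRBCK1 #2, and they were matched to the libraries by number, which the labels do not state. The capitals mark the stretch of the sense strand that pairs with the seed of the guide strand (bases 12 to 18 of 19), the part that most often pairs with unintended transcripts.
si-HOIL-1#1: ggtgcaccttcATCAACAa
si-HOIL-1#2: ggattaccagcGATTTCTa
Among the protein-coding genes tested, RBCK1 was the only one whose longest transcript held either full sequence. RBCK1 itself stood at 33.3 RPKM (reads scaled by gene length and library total) in si-Control, 9.97 RPKM with si-HOIL-1#1 and 12.3 RPKM with si-HOIL-1#2. Its level was thus 29.9% and 36.8% of that in si-Control, lower in both libraries as labelled.

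The RPKM values were scaled to totals of 36926834 reads in si-Control, 40442939 with si-HOIL-1#1 and 36344428 with si-HOIL-1#2. Genes were compared where their average over the libraries was 1 RPKM or more, which left 12403. All 78 mitoribosomal genes passed this filter, on 179 to 9167 recovered reads per gene and library. Recovered reads are the smallest whole numbers that give the RPKM values, so the true reads can be a multiple of them. The renal and epithelial genes PAX8 (82.5 to 124 RPKM), KRT8 (65.6 to 238 RPKM) and KRT18 (95.3 to 172 RPKM) were at high levels, and CDH6 was at 0.87 to 3.53 RPKM. KRT8, KRT18 and CDH6 were lowest in si-Control and PAX8 was highest there, and EPCAM and PAX2 were below 1 RPKM throughout. Of the 3 leukocyte and 3 endothelial markers, 0 reached a mean of 1 RPKM, and of the 3 fibroblast markers only COL1A1 did (3.21 to 4.68 RPKM). In bulk RNA, fewer cells of a kind and less RNA per cell cannot be told apart.

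Most mitoribosomal transcripts were higher in both si-HOIL-1 libraries, by a modest amount. The summed level of the 78 genes was 2887 RPKM in si-Control, 3476 RPKM with si-HOIL-1#1 and 3193 RPKM with si-HOIL-1#2. That sum was 20.4% higher with si-HOIL-1#1 and 10.6% higher with si-HOIL-1#2. As a share of the RPKM of all protein-coding genes it was 0.737%, 0.853% and 0.797%, in the same order. The median level was 28.4, 36.8 and 35.8 RPKM. MRPL33, which has the highest level of the set in si-Control, was lower in both si-HOIL-1 libraries. Without it the log2 ratio of the summed level was 0.31 in place of 0.27 with si-HOIL-1#1 and 0.20 in place of 0.15 with si-HOIL-1#2.

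Each gene was then compared with si-Control as a log2 ratio of RPKM + 1. The median over the 78 genes was 0.26 with si-HOIL-1#1 (range -0.53 to 1.29) and 0.18 with si-HOIL-1#2 (range -0.69 to 1.20). Over all 12403 genes the medians were 0.02 and 0.03. With si-HOIL-1#1, 65 of the 78 genes (83.3%) were above si-Control, where 51.5% of all genes were. With si-HOIL-1#2, 61 genes (78.2%) were above it, against 53.5% of all genes. The genes above si-Control in both libraries numbered 59 (75.6%, against 43.3% of all genes), and those below it in both numbered 11 (14.1%, against 38.2%). Both comparisons share the si-Control library, so the count in both is not a repeat of the count in either. With the libraries scaled to equal medians or to equal totals, the genes above si-Control with si-HOIL-1#2 numbered 54 and those above it in both numbered 52 and 51, because genes close to 0 crossed it.

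**Figure D1:**
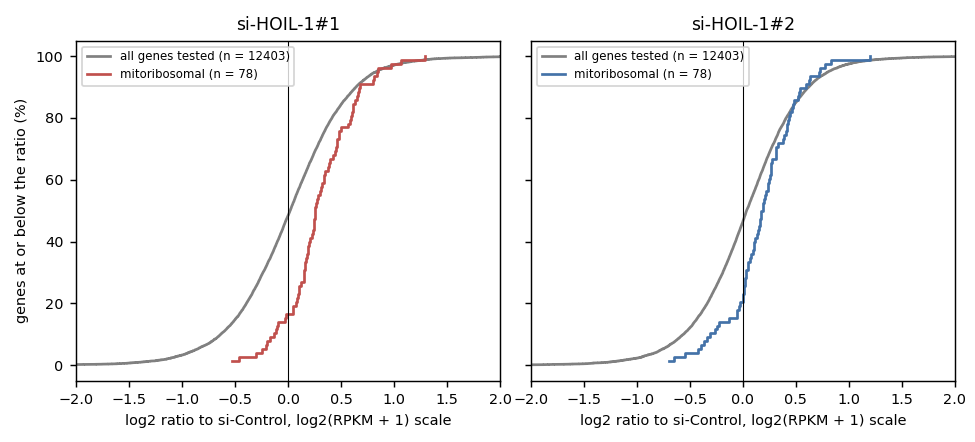
Cumulative share of genes (y axis, percent) at or below each log2 ratio to si-Control (x axis, log2(RPKM + 1) scale), for the 78 mitoribosomal genes (coloured step) and all 12403 genes tested (grey), with si-HOIL-1#1 on the left and si-HOIL-1#2 on the right. The coloured step lies to the right of the grey curve over most of its range, with medians of 0.26 and 0.18 against 0.02 and 0.03, while the 2 curves meet or cross among the largest ratios.

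Levels at least 1.5-fold higher were more frequent in the set than among all genes with si-HOIL-1#1, but not with si-HOIL-1#2. In either direction such differences were no more frequent, at 21.8% of the set against 23.7% of all genes with si-HOIL-1#1 and 12.8% against 20.6% with si-HOIL-1#2. At least 1.5-fold higher were 17 of the 78 genes with si-HOIL-1#1 (21.8%, against 12.1% of all genes) and 8 with si-HOIL-1#2 (10.3%, against 11.3%). Only 5 genes, MRPL14, MRPL16, MRPL27, MRPS2 and MRPS28, passed that limit in both libraries, which is 6.41% of the set against 7.47% of all genes. The 1.5-fold limit was passed downwards by 0 genes with si-HOIL-1#1, against 11.6% of all genes, and by 2 with si-HOIL-1#2 (MRPL1 and MRPL33, 2.56%, against 9.32%). The count of 17 depended on the scale. It was 11 with the libraries scaled to equal totals (14.1%, against 10.1% of all genes) and 10 with 5 RPKM added to each value in place of 1 (12.8%, against 5.51%). The comparison in either direction also depended on the added value. With 5 RPKM it was 12.8% of the set against 10.3% of all genes with si-HOIL-1#1, and 7.69% against 8.64% with si-HOIL-1#2.

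The reads behind each value bound the counting error. For each gene the reads were set against the library totals, and an exact 95% interval was placed on the log2 ratio of reads per total, with a median half-width of 0.098 for si-HOIL-1#1 and 0.10 for si-HOIL-1#2. Such an interval covers counting error only and compares libraries, not conditions. Where the true reads are a multiple of those recovered, the interval shown is wider than the true one. It lay above 0 for 60 of the 78 genes with si-HOIL-1#1 (76.9%, against 40.2% of the 12391 genes with recovered reads), for 50 with si-HOIL-1#2 (64.1%, against 41%) and for 46 with both (59%, against 31.9%). It lay below 0 for 10 genes with si-HOIL-1#1 (12.8%, against 37.5%), for 12 with si-HOIL-1#2 (15.4%, against 34.1%) and for 9 with both (11.5%, against 27.7%). An interval is narrower where there are more reads. All 78 genes averaged at least 5 RPKM, whereas the genes set beside them start at 1 RPKM. Shares counted from intervals are therefore not matched for level.

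**Figure D2:**
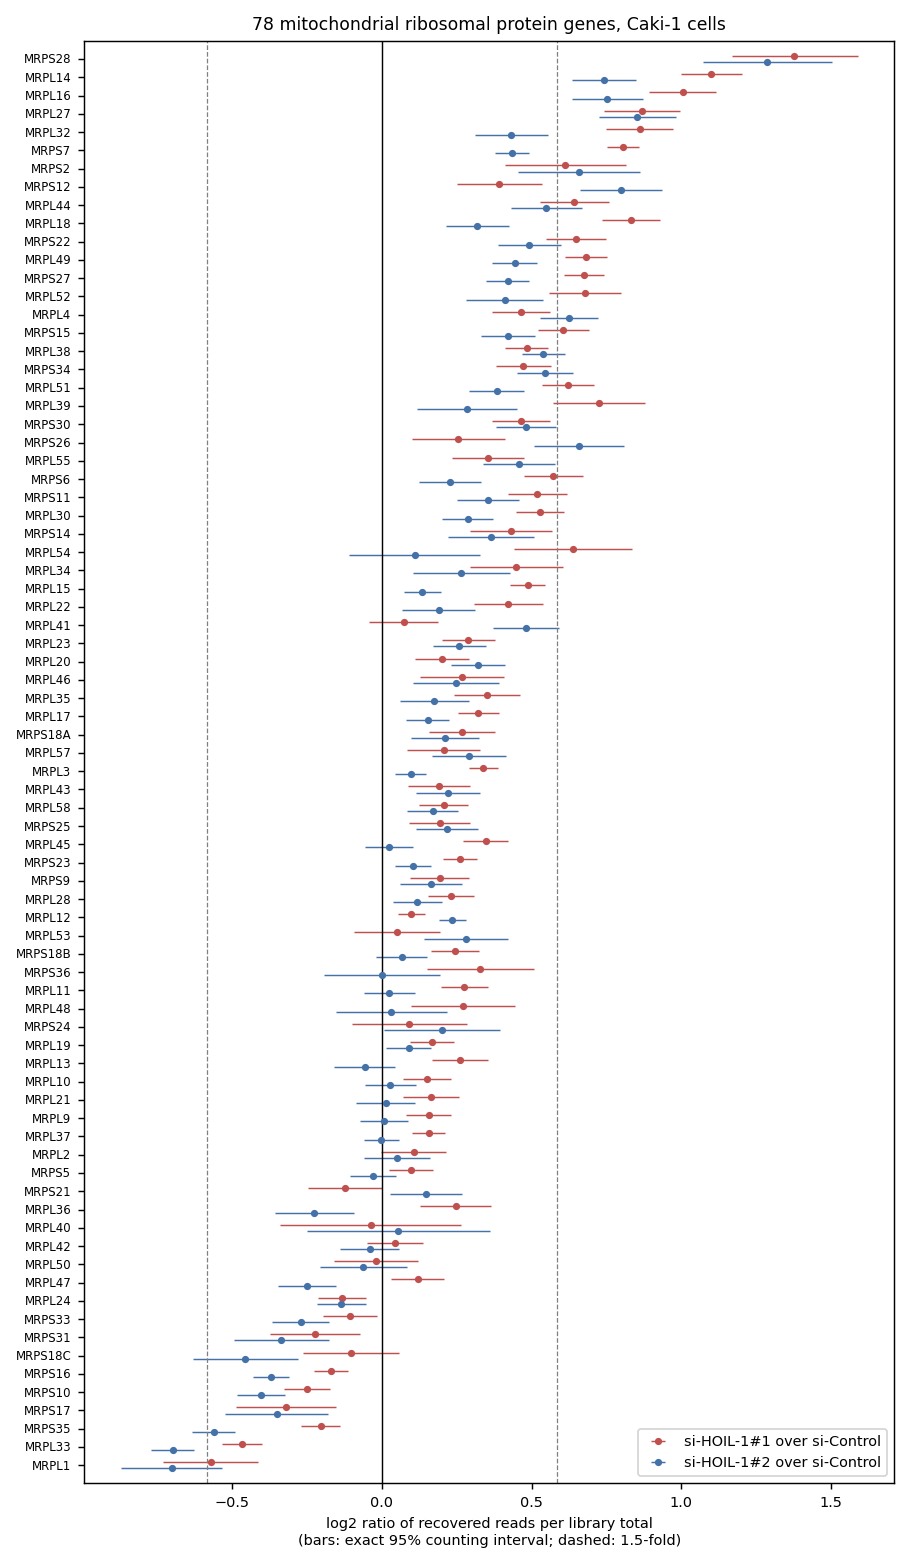
Log2 ratio of reads per library total (x axis) for each of the 78 mitoribosomal genes (y axis), ordered from the highest to the lowest mean ratio, with si-HOIL-1#1 in red and si-HOIL-1#2 in blue; bars are exact 95% counting intervals and dashed lines mark 1.5-fold. The intervals of 46 genes lie above 0 in both libraries and those of 9 lie below 0 in both, with MRPS28 at the top and MRPL1 at the bottom.

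Among the genes that were higher in both libraries, MRPS28 had the largest ratios. It encodes a small-subunit protein, and its gene spans chr8:80831095-80942506 on the minus strand (hg19, as all gene positions from the deposited table). It was at 9.73 RPKM in si-Control, 25.3 RPKM with si-HOIL-1#1 and 23.7 RPKM with si-HOIL-1#2, so that both si-HOIL-1 libraries were far above si-Control and close to each other. The log2 ratios of RPKM + 1 were 1.29 and 1.20, and the lower bounds of the counting intervals were 1.17 and 1.07.

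Several proteins of the core of the large subunit followed. MRPL14 lies at the face that joins the small subunit, where it is held by the assembly factor MALSU1. It stood at 21.6, 46.3 and 36.1 RPKM in si-Control, si-HOIL-1#1 and si-HOIL-1#2, with log2 ratios of 1.06 and 0.72. Its level with si-HOIL-1#1 was the higher of the knockdown levels. The gene (chr6:44081191-44095228, minus strand) overlaps TMEM63B on the opposite strand by 578 nt, and TMEM63B had log2 ratios of 0.36 and 0.33. MRPL16, a protein near the catalytic centre that joins the subunit late, stood at 21.8, 43.7 and 36.7 RPKM in the same order, with log2 ratios of 0.97 and 0.73. MRPL27, whose bacterial counterpart reaches the site of peptide bond formation, stood at 29.9, 54.6 and 54.0 RPKM (0.85 and 0.83). For MRPL27 the knockdown libraries were nearly equal, and for MRPL16 si-HOIL-1#1 was higher.

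MRPL32 is cut by the inner-membrane m-AAA protease before it can join the large subunit. It stood at 29.3 RPKM in si-Control, 53.2 RPKM with si-HOIL-1#1 and 39.5 RPKM with si-HOIL-1#2, with log2 ratios of 0.84 and 0.42. MRPL18, a protein of the central protuberance, the knob at the top of the large subunit, stood at 26.3, 46.8 and 32.8 RPKM (0.81 and 0.31). In both genes the level with si-HOIL-1#1 stood apart and that with si-HOIL-1#2 lay between it and si-Control. MRPL44, a mitochondria-specific protein with a fold related to ribonuclease III, stood at 15.2, 23.7 and 22.2 RPKM (0.61 and 0.52), with both knockdown libraries above si-Control.

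In the small subunit, MRPS7, which binds the ribosomal RNA in the head of the subunit, was among the genes with the highest levels, at 80.0 RPKM in si-Control, 140 RPKM with si-HOIL-1#1 and 108 RPKM with si-HOIL-1#2. Its log2 ratios were 0.80 and 0.43. The gene (chr17:73257749-73262457, plus strand) overlaps GGA3 by 726 nt and MIF4GD by 149 nt, both on the opposite strand. GGA3 had log2 ratios of 0.39 and 0.37 and MIF4GD of -0.89 and -0.80. MRPS2 stood at 19.9, 30.5 and 31.5 RPKM (0.59 and 0.63), with the knockdown libraries close together. MRPS12, a protein of the decoding centre, had much the larger ratio with si-HOIL-1#2, at 27.9, 36.6 and 48.4 RPKM (0.38 and 0.78). MRPS12 (chr19:39421348-39423660, plus strand) overlaps SARS2, the mitochondrial seryl-tRNA synthetase gene, by 189 nt on the opposite strand, and SARS2 had log2 ratios of 0.53 and 0.84.

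**Figure D3:**
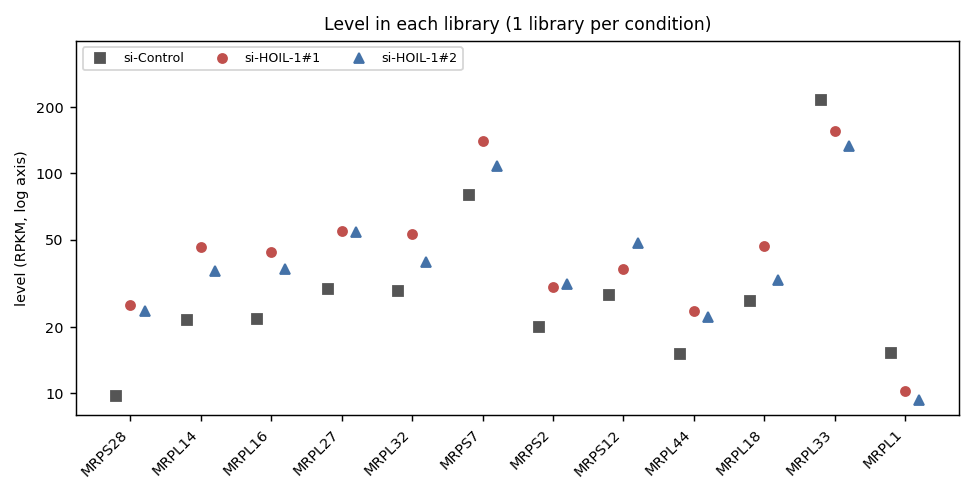
Level in RPKM (y axis, log scale) of the 12 mitoribosomal genes with the largest mean log2 ratios in either direction (x axis) in si-Control (squares), si-HOIL-1#1 (circles) and si-HOIL-1#2 (triangles), 1 library each. In MRPS28 through MRPL18 both knockdown libraries lie above si-Control, as from 9.73 to 25.3 and 23.7 RPKM for MRPS28, and in MRPL33 and MRPL1 both lie below it.

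The genes that were lower in both libraries were MRPL1, MRPL24, MRPL33, MRPL50, MRPS10, MRPS16, MRPS17, MRPS18C, MRPS31, MRPS33 and MRPS35. MRPL1, whose bacterial counterpart forms the mobile stalk beside the tRNA exit site, stood at 15.2 RPKM in si-Control, 10.3 RPKM with si-HOIL-1#1 and 9.37 RPKM with si-HOIL-1#2, with log2 ratios of -0.53 and -0.65. MRPL33, a short large-subunit protein, stood at 215, 156 and 133 RPKM (-0.47 and -0.69). Both knockdown libraries were below si-Control for these genes, with si-HOIL-1#2 the lower.

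The other genes of this group named by the fixed rule encode small-subunit proteins. MRPS17 stood at 29.5, 23.7 and 23.1 RPKM (-0.31 and -0.34), and MRPS10, a protein of the head, at 36.4, 30.6 and 27.5 RPKM (-0.24 and -0.39). The mitochondria-specific MRPS35 stood at 54.7, 47.5 and 37.1 RPKM (-0.20 and -0.55), and MRPS31, also mitochondria-specific, at 15.0, 12.9 and 11.9 RPKM (-0.21 and -0.31). In all 4 the level with si-HOIL-1#2 was the lowest, and the counting intervals of all 4 lay below 0 in both libraries.

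The levels of the set spanned more than an order of magnitude in every library. After MRPL33 the highest in si-Control was MRPL12, at 209, 223 and 246 RPKM (0.10 and 0.23), the stalk protein that recruits translation factors and also binds the mitochondrial RNA polymerase. MRPL3, a core large-subunit protein, followed at 88.9, 112 and 95.02 RPKM (0.34 and 0.10), then the mitochondria-specific MRPS23 at 81.2, 97.2 and 87.3 RPKM (0.26 and 0.10). The lowest levels were those of MRPS25 (7.04, 8.05 and 8.19 RPKM), MRPS11 (7.16, 10.3 and 9.15 RPKM), MRPS14 (8.69, 11.7 and 11.2 RPKM), MRPL22 of the exit tunnel (8.82, 11.8 and 10.1 RPKM) and MRPL48 of the central protuberance (9.15, 11.05 and 9.36 RPKM). All 5 of these low genes were above si-Control in both knockdown libraries, except that MRPL48 with si-HOIL-1#2 (0.03) had a counting interval that included 0 and turned to just below 0 with the libraries scaled to equal medians or totals.

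The subunits had similar medians. They were assigned by symbol alone, MRPL as large and MRPS as small, so a gene whose protein lies elsewhere, such as MRPS36, is counted by its name. The 49 large-subunit genes had median log2 ratios of 0.26 and 0.17 with si-HOIL-1#1 and si-HOIL-1#2, and the 29 small-subunit genes had 0.26 and 0.19. Their spread differed in description. By symbol, 39 of 49 large-subunit genes and 20 of 29 small-subunit genes were higher in both libraries, against 43.3% of all genes. Those lower in both were 4 of 49 and 7 of 29, against 38.2% of all genes. The 48 proteins with a bacterial counterpart had medians of 0.26 and 0.16, and the 29 mitochondria-specific ones 0.25 and 0.24. MRPS36, written in neither of these lists and now known as a protein of the alpha-ketoglutarate dehydrogenase complex, stood at 9.17, 11.5 and 9.17 RPKM. MRPL58, a peptidyl-tRNA hydrolase built into the large subunit that frees stalled chains, stood at 65.1, 75.2 and 73.3 RPKM (0.20 and 0.17).

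Within the large subunit, the 7 genes of the central protuberance (MRPL18, MRPL27, MRPL38, MRPL40, MRPL46, MRPL48 and MRPL55) had medians of 0.35 and 0.31, and 6 of them were higher in both libraries. The 8 genes of the rim of the exit tunnel had medians of 0.33 and 0.16, also with 6 higher in both. The 5 genes of the L7/L12 stalk (MRPL10, MRPL11, MRPL12, MRPL53 and MRPL54) had medians of 0.15 and 0.10 and were all higher in both, although under another scaling MRPL10 and MRPL11 with si-HOIL-1#2 and MRPL53 with si-HOIL-1#1 lay just below 0. The mean of the stalk genes with si-HOIL-1#1 was 0.23, above its median, because MRPL54 (0.61) lay far from the others. These lists are small, and the difference between them was not tested.

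The knockdown libraries also differed from each other. Of the 78 genes, 60 (76.9%) had a higher RPKM with si-HOIL-1#1 than with si-HOIL-1#2, where 48.2% of all genes did, and the median log2 ratio of si-HOIL-1#1 over si-HOIL-1#2 was 0.15 against -0.01 for all genes. The counting interval of that ratio lay above 0 for 44 genes (56.4%, against 29.1%) and below 0 for 8 (10.3%, against 33.4%). The 8 were MRPL4, MRPL12, MRPL20, MRPL41, MRPL53, MRPS12, MRPS21 and MRPS26. MRPL54 was at 22.9 RPKM with si-HOIL-1#1 and 15.9 RPKM with si-HOIL-1#2 (0.50), and MRPL41 at 54.0 and 71.6 RPKM (-0.40). For 3 genes the libraries lay on opposite sides of si-Control beyond counting error as deposited, namely MRPL36 (45.4 RPKM in si-Control, 53.8 with si-HOIL-1#1 and 38.8 with si-HOIL-1#2), MRPL47 of the exit tunnel (43.9, 47.7 and 37.0 RPKM) and MRPS21 (19.1, 17.5 and 21.1 RPKM). With the libraries scaled to equal totals this held for MRPL36 only.

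The longest transcripts of some mitoribosomal genes hold a match to an siRNA seed. The seed of si-HOIL-1#1 alone was matched in 6 genes (7.69%), that of si-HOIL-1#2 alone in 11 (14.1%), both in 2, and neither in 59. Of the 10553 protein-coding genes with a transcript, 14.7% matched only the seed of si-HOIL-1#1 and 20.1% only that of si-HOIL-1#2. The 59 genes with no match had median log2 ratios of 0.26 and 0.22. The 6 genes matched by si-HOIL-1#1 alone had a median of 0.20 with that siRNA, and the 11 matched by si-HOIL-1#2 alone had a median of 0.15 with that one, in each case under the genes with no match. The same order held over all protein-coding genes with a transcript, at 0.08 and 0.10 with no match, -0.01 with si-HOIL-1#1 for its seed alone and -0.03 with si-HOIL-1#2 for its seed alone. With the other siRNA, the 6 genes had a median of 0.05 and the 11 genes 0.31, against 0.22 and 0.26 with no match. Over all protein-coding genes with a transcript, the seed of si-HOIL-1#1 alone went with 0.01 under si-HOIL-1#2. That of si-HOIL-1#2 alone went with -0.02 under si-HOIL-1#1. Over all these genes, the matched genes thus had lower medians with either siRNA. The part of seed matches in the levels was not tested.

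The remaining mitoribosome proteins and the factors around the particle were read beside the set. Of 5 mitoribosome proteins whose symbols fall outside the MRPL and MRPS names, CHCHD1 stood at 15.0, 25.2 and 22.3 RPKM (0.71 and 0.54), AURKAIP1 at 47.7, 64.4 and 72.6 RPKM (0.43 and 0.60) and GADD45GIP1 at 87.2, 118 and 117 RPKM (0.43 and 0.42). All 3 were above si-Control in both libraries. The other members of that list were lower in both, DAP3, a GTP-binding small-subunit protein, at 122, 114 and 93.5 RPKM (-0.10 and -0.38) and PTCD3 at 9.41, 8.735 and 9.04 RPKM (-0.10 and -0.05).

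Of 27 genes for assembly of the particle and modification of its RNAs, 18 were higher in both libraries and 5 lower in both, with medians of 0.37 and 0.31. RPUSD4, a pseudouridine synthase acting on the large ribosomal RNA, was at 5.99, 12.5 and 11.3 RPKM (0.95 and 0.82). MALSU1, the partner of MRPL14 named above, was at 22.3, 35.4 and 31.2 RPKM (0.64 and 0.47). In the other direction, GTPBP10, a GTPase of large-subunit assembly, was at 10.6, 4.09 and 3.99 RPKM (-1.19 and -1.22). GTPBP10 thus had the lowest ratio of this list in both libraries, while most of the list was higher. MALSU1 was named after its values were seen.

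The 15 translation factors did not share the direction of the particle's proteins. Their medians were -0.02 and -0.17, with 6 higher in both libraries and 7 lower in both. GUF1, an elongation factor relative, was at 23.3, 14.4 and 16.0 RPKM (-0.65 and -0.52), and PDF, which removes the formyl group from new chains, at 5.36, 7.13 and 10.1 RPKM (0.36 and 0.80). Of 17 mitochondrial tRNA synthetases, 10 were higher in both and 3 lower in both (medians 0.15 and 0.16). AARS2, for alanine, was at 3.43, 6.64 and 6.21 RPKM, and NARS2, for asparagine, at 17.8, 7.87 and 9.43 RPKM. In each of these lists the pair of genes named lay on opposite sides of si-Control in both libraries.

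The RNAs that the mitochondrial genome itself encodes had medians near those of all genes. Over 15 of them, the 2 ribosomal RNAs and the mRNAs, the medians were 0.03 and 0.09, with 9 higher in both libraries and 3 lower in both. RNR1, the ribosomal RNA of the small subunit, was at 1140 RPKM in si-Control, 1945 with si-HOIL-1#1 and 1741 with si-HOIL-1#2 (0.77 and 0.61). RNR2, that of the large subunit, was at 9489, 10879 and 10194 RPKM (0.20 and 0.10). Ribosomal RNA removal preceded sequencing, and its part in these values was not tested. ND4, a subunit of complex I, was at 7125, 5139 and 6089 RPKM (-0.47 and -0.23), so the ribosomal RNAs were higher and this mRNA lower in both libraries. RNR2 was named after its values were seen. Of 9 genes for transcription and RNA stability in mitochondria, 4 were higher in both, among them POLRMT, the RNA polymerase, at 7.13, 10.9 and 11.6 RPKM, and 2 lower in both, among them PNPT1, an exoribonuclease, at 15.2, 11.3 and 9.555 RPKM.

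Other large protein complexes were shifted by similar amounts. Of 85 cytosolic ribosomal protein genes tested, 64 were higher in both libraries, with medians of 0.29 and 0.13. Of 77 nuclear genes for respiratory chain subunits, 59 were higher in both, with medians of 0.24 and 0.19. The shift of the mitoribosomal genes, 0.26 and 0.18, lay beside these, and the difference between the lists was not tested. Cytosolic ribosomal protein genes have many pseudogene copies that can share reads, so their single values are uncertain.

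**Figure D4:**
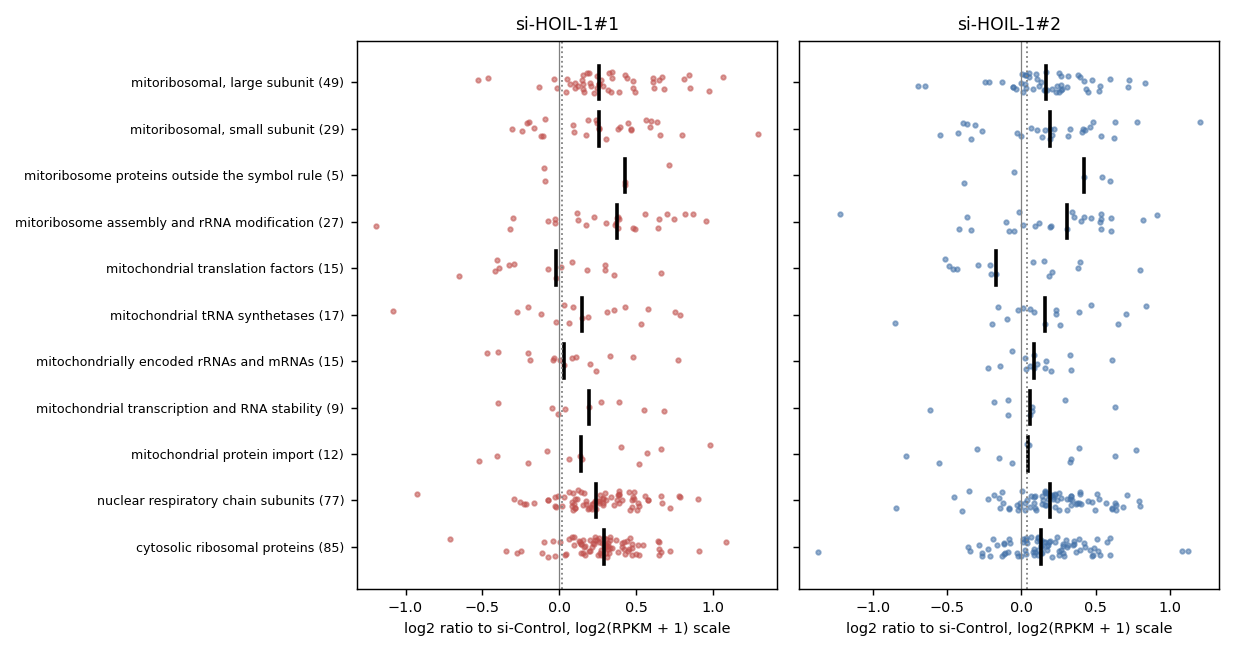
Log2 ratio to si-Control (x axis, log2(RPKM + 1) scale) of each gene (points, spread vertically for legibility) in 11 lists (y axis, number of genes in parentheses), with si-HOIL-1#1 on the left and si-HOIL-1#2 on the right; black bars are list medians and the dotted line is the median of all genes tested. The medians of the large and small mitoribosomal subunits, assigned by symbol (0.26 and 0.26, then 0.17 and 0.19), lie beside those of the respiratory chain (0.24 and 0.19) and cytosolic ribosome (0.29 and 0.13), and that of the translation factors lies lowest (-0.02 and -0.17).

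The promoters of these genes are shown because the set is spread over 21 chromosomes, with at most 8 genes on 1 of them, and is otherwise joined only by its function. NRF1, the ETS factor GABP and YY1 are known regulators of nuclear genes for mitochondria. Windows of 300 bases, from 250 before to 50 after the transcription start, were taken from RefSeq (GRCh38.p14, a different build from the gene positions above) and matched 69 of the 78 genes. The genes without a window were MRPL2, MRPL10, MRPL13, MRPL15, MRPL21, MRPL23, MRPL35, MRPS28 and MRPS36. Capitals mark CCGGAAG or its reverse complement (ETS family) in the first 3 and AAGATGGCG (YY1) in the last. MRPL27 and MRPL16 were chosen as genes at least 1.5-fold higher in both libraries, MRPL33 as a gene lower in both, and MRPL46 because it shares its start region with MRPS11.
MRPL27, chr17:50373135-50373434, minus strand: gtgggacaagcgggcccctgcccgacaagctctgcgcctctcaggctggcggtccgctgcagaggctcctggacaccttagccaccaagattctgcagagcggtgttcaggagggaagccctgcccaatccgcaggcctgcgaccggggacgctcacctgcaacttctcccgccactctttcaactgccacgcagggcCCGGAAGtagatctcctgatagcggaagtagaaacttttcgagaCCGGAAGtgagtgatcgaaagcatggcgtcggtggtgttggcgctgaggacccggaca
MRPL16, chr11:59810729-59811028, minus strand: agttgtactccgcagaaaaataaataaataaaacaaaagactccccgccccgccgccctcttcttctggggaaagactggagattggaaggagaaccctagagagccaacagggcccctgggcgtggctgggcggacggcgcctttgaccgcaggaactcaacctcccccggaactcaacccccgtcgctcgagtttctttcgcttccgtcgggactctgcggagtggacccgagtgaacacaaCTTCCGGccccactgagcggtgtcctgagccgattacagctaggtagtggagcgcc
MRPL33, chr2:27771469-27771768, plus strand: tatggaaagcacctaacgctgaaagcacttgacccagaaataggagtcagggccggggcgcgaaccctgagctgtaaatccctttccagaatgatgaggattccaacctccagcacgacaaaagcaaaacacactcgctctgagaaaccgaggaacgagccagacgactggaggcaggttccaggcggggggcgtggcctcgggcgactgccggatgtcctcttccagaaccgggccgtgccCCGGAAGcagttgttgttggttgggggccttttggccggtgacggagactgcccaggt
MRPL46, chr15:88467339-88467638, minus strand: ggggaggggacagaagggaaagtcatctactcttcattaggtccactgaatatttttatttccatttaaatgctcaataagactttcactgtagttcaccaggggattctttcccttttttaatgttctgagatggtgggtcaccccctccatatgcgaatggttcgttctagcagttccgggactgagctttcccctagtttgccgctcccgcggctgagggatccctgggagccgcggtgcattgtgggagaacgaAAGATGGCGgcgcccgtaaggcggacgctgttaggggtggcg
The ETS letters stood close to the start in MRPL16 and in MRPL33, which were chosen as higher and as lower in both knockdown libraries. The part of these letters in the levels was not tested.

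Exact matches were counted on both strands. CCGGAAG was found in the windows of 30 of the 69 genes (43.5%), in 24.2% of 8546 protein-coding genes tested and in 12.2% of all genes with a window. AAGATGGCG was found in 13 (18.8%), against 5.34% and 2.14%. The 2 can overlap, since the first ends and the second begins with AAG. One or more of these and of GCGCATGCG (NRF1) was present in 40 genes (58.0%), against 31.1% of the protein-coding genes tested. GCGCATGCG alone was in 3 genes (4.35%), against 4.52%. CACGTG (E-box) was in 9 (13.0%, against 13.3%), TGACGTCA (CRE) in 1 (1.45%, against 4.01%) and GGGCGG (SP family) in 42 (60.9%, against 78.8%). A match is a description of letters in this window and not a bound site.

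The positions of the matches varied between genes. Counting a site once where the windows of a gene overlap, and at its distance to the nearest start, the 40 ETS sites in 30 genes lay from 222 bases before to 8 bases after the start, with a median of 24 bases before it. The 14 YY1 sites in 13 genes lay from 223 bases before to 36 bases after the start, with a median of 9 bases after it. Of these 14, 10 lay after the start and 12 were on the strand of the gene. Distances in other genes were not computed. Medians with ETS letters were 0.24 and 0.19 and without them 0.27 and 0.22, and medians with YY1 letters were 0.26 and 0.19 and without them 0.25 and 0.21. With SP family letters they were 0.33 and 0.26 and without them 0.24 and 0.10. With E-box letters, in 9 genes, they were 0.34 and 0.02 and without them 0.25 and 0.21. These differences between genes with and without letters were not tested.

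Many mitoribosomal genes start next to another gene. A protein-coding neighbour that began within 1000 nt on the opposite strand, pointing away, was present for 21 of the 78 genes (26.9%) and for 1281 of 10775 protein-coding genes tested (11.9%). Of these neighbours 20 passed the filter on level, with MRPS11 and MRPL46 counted as neighbours of each other across a gap of 51 nt. The neighbours had median log2 ratios of 0.22 and 0.21 and their mitoribosomal partners 0.36 and 0.22, where all genes had 0.02 and 0.03. Of the 20 neighbours, 12 were higher in both libraries, against 43.3% of all genes. The 12 include MRPS11 and MRPL46, which belong to the set themselves.

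The pairs did not all move together. EME1, which encodes part of a structure-specific DNA endonuclease, starts 19 nt from MRPL27 and stood at 3.51, 7.33 and 8.03 RPKM (0.89 and 1.00), higher in both libraries as MRPL27 was. PSMA2, a proteasome subunit gene 134 nt from MRPL32, had log2 ratios of 0.62 and 0.34, and TCP1, a chaperonin gene 109 nt from MRPL18, 0.62 and 0.46. In contrast, MITD1 starts 18 nt from MRPL30 and stood at 21.5, 14.3 and 15.2 RPKM (-0.56 and -0.48), while MRPL30 stood at 12.3, 17.7 and 15.0 RPKM (0.49 and 0.27). PTCD2, 110 nt from MRPS27, was likewise lower (-0.31 and -0.27) where MRPS27 was higher (0.66 and 0.41). These pairs were chosen after their values were seen.

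**Figure D5:**
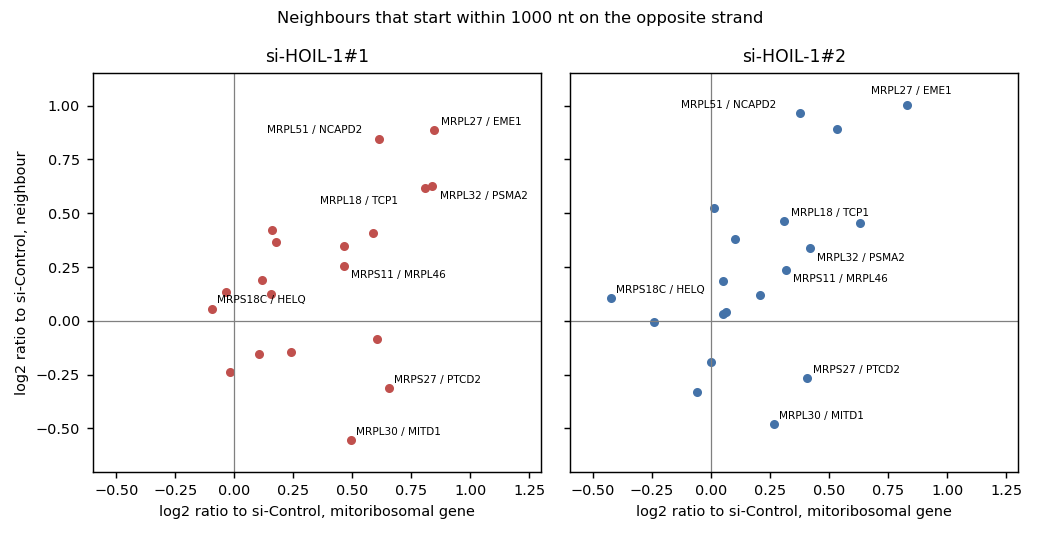
Log2 ratio to si-Control of each mitoribosomal gene (x axis) and of the protein-coding neighbour that starts within 1000 nt on the opposite strand (y axis), both on the log2(RPKM + 1) scale, with si-HOIL-1#1 on the left and si-HOIL-1#2 on the right and 1 point per pair. MRPL27 with EME1 lies in the upper right of both panels (0.85 and 0.89, then 0.83 and 1.00), and MRPL30 with MITD1 in the lower right (0.49 and -0.56, then 0.27 and -0.48).

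Reads of neighbouring genes could enter some values. Of the 78 genes, 27 overlapped another gene in the table and 12 overlapped one of at least 1 RPKM, and whether strand was used in counting is not given in the sources used here. Over the 66 genes without such an overlap the medians were 0.26 and 0.16. The table also held 40 named pseudogenes of the set, of which 1 (MRPL45P2) reached a mean of 1 RPKM, and how reads shared by near-identical copies were counted is not given either.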

How the data were processed

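RNA from 3 Caki-1 libraries, 1 per condition, was sequenced after ribosomal RNA removal. The labels name an Illumina instrument, whereas the methods name the platform of the Beijing Genomic Institute. The authors deposited 1 table with an RPKM value for each of 44591 genes and library. The submitters' processing notes name FastQC, Trimmomatic, TopHat2, HTSeq and hg19, without their order. The authors' own comparison columns (control and treated means, fold change, p-value and q-value) were not used.

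Ratios were taken on log2(RPKM + 1) for the 12403 genes averaging 1 RPKM or more over the 3 libraries. The smallest whole reads that give the RPKM values were recovered, using library totals found from RNAs of up to 200 nt, for 12391 of these genes (99.9%, within 0.001 reads). Exact Clopper-Pearson intervals (95%) were placed on those reads. With 1 library per condition, no test was made. The set contains 78 genes, and called means past 1.5-fold. The other lists were written from general knowledge, and the mitochondrially encoded genes were matched to the table's names on the mitochondrial chromosome once those were seen. The members and lists were chosen with earlier results of these data known.

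Named were the genes changed at least 1.5-fold in either library (22, of which the 12 with the largest mean ratios), the 6 lowest and 6 highest of 1 sign in both, the 5 highest and 5 lowest levels, those in opposite directions beyond counting error, the 2 largest of each other list, and RBCK1. Others were named after their values were seen. Promoters came from RefSeq (GRCh38.p14) the siRNAs from the study's sequence list, and the transcripts searched for seeds from GENCODE. Alternatives were equal medians or totals, pseudocounts of 0.1 and 5 RPKM, other filters, a lower and a 2-fold limit, means, and the set without its highest gene. Steps were tested on simulated data. The scripts ran in Python 3.11.15 with scipy 1.17.1, matplotlib 3.10.9, pandas 2.3.3 and numpy 2.4.6.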

Additional observations from a re-analysis of the deposited data

Results flagged for a closer look

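In 3 mitoribosomal genes the levels with the siRNAs lay on opposite sides of si-Control, each beyond counting error on the RPKM values as deposited. MRPL36, a small large-subunit protein, had log2 ratios of 0.24 with si-HOIL-1#1 and -0.22 with si-HOIL-1#2, and the log2 ratio between the knockdown libraries was 0.46. For MRPL47, of the exit tunnel, the ratios were 0.12 and -0.24, and 0.36 between the libraries. MRPS21, of the small subunit, lay the other way, at -0.12 and 0.14, and -0.26 between the libraries. Only MRPL36 stayed beyond counting error in both directions under the other scalings. The interval of MRPS21 with si-HOIL-1#2, from 0.028 as deposited, included 0 with the libraries scaled to equal medians or totals. That of MRPL47 with si-HOIL-1#1, from 0.032 as deposited, included 0 with equal totals. With 1 library per siRNA, the difference between conditions was not tested, and both ratios share si-Control.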

How the results depend on the processing

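The medians of the set and of both subunits stayed above 0 under each scaling, pseudocount and filter tried, with the subunits under equal totals, the pseudocounts and the filters added after seeing the data. Of the values that answer a comparison, 128 stayed near the value reported and 16 moved. Genes close to 0 did change sign with the scaling. MRPL48 with si-HOIL-1#2 went from 0.03 to -0.0084 under equal medians, and the genes above si-Control with si-HOIL-1#2 went from 61 to 54 under equal medians and under equal totals. Those above it in both libraries went from 59 to 52 and 51, settings also added after seeing the data. Counts past a fold limit moved most, as limits below and above 1.5-fold imply, and the share of all genes moved with them. Genes at least 1.5-fold higher with si-HOIL-1#1 (17) became 11 with equal totals (10.1% of all genes), 10 with a pseudocount of 5 RPKM (5.51%), 32 at the lower limit (25.8%) and 2 at 2-fold (2.91%). With si-HOIL-1#2 the 8 became 5 with 5 RPKM (4.81% of all genes), 23 at the lower limit (25.9%) and 1 at 2-fold (2.5%). The 5 in both libraries became 21 at the lower limit and 1 at 2-fold. The share of all genes in both libraries was not computed at those limits, so these counts cannot be set against it. Genes lower by the limit went from 0 to 2 at the lower limit with si-HOIL-1#1 (24.3% of all genes), and with si-HOIL-1#2 from 2 to 1 with 5 RPKM (3.83%), 7 at the lower limit (20.8%) and 0 at 2-fold (2.27%). Without MRPL33 the log2 ratio of the summed level was 0.31 and 0.20. The mean of the L7/L12 stalk with si-HOIL-1#1 was 0.23. For the shift with equal totals the cause was not tested. Of the values of single genes, 158 stayed near the value reported and 4 moved, all with 5 RPKM. No paired analysis was possible because a condition held only 1 library. Depth limits single genes to a median half-width of about 0.10 on the log2 scale. The interval was wider at few reads, as for MRPL40 with si-HOIL-1#1 (-0.34 to 0.26). The lack of replicates limits everything else.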

Other observations

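Lists further from the ribosome held genes on both sides of si-Control. Of 12 genes for protein import into mitochondria, 6 were higher in both libraries and 3 lower in both, with median log2 ratios of 0.14 and 0.04. PMPCA, a subunit of the protease that removes import signals, stood at 23.7 RPKM in si-Control, 47.6 RPKM with si-HOIL-1#1 and 41.2 RPKM with si-HOIL-1#2. HSPA9, the chaperone that pulls proteins through the inner membrane, stood at 402, 280 and 235 RPKM. PMPCA was thus higher and HSPA9 lower in both knockdown libraries.

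Of 8 tested regulators of nuclear genes for mitochondria, 2 were higher in both libraries and 3 lower in both, with medians of -0.05 and -0.02. GABPB1, the partner of the ETS factor GABPA, stood at 11.4, 7.47 and 6.20 RPKM (-0.55 and -0.79), and NRF1 at 4.52, 3.17 and 2.99 RPKM (-0.41 and -0.47). GABPA stood at 4.25, 4.30 and 4.53 RPKM (0.01 and 0.08) and YY1 at 29.3, 33.1 and 26.9 RPKM (0.17 and -0.12). The mRNAs of GABPB1 and NRF1 were thus lower in both knockdown libraries. The part of these regulators in the mitoribosomal levels was not tested. GABPA and YY1 were named after their values were seen.

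Among cytosolic ribosomal protein genes, RPS27L stood at 41.7, 89.5 and 92.0 RPKM (1.08 and 1.12) and RPL22L1 at 50.8, 30.7 and 19.1 RPKM (-0.71 and -1.37). Both are paralogs of a main ribosomal protein gene. Among nuclear respiratory chain genes, ATP5G3, a subunit of the ATP synthase ring, stood at 27.5, 52.4 and 44.7 RPKM (0.90 and 0.68) and NDUFA4L2, a gene induced by HIF-1, at 2.12, 0.65 and 0.74 RPKM (-0.92 and -0.84).

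Across the 78 mitoribosomal genes, the ratio bore little relation to level or length. Pearson's r between the log2 ratio and the log2 level in si-Control was -0.18 with si-HOIL-1#1 and -0.22 with si-HOIL-1#2, where the level is also part of the ratio. Against log2 length it was -0.01 and -0.08. The genes share their libraries, and these values are descriptions.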
